A study of Mus musculus with 10 samples.

Results

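Major histocompatibility complex (MHC) class II and T-cell costimulation is represented here by 10 genes, given as a list of names, out of 55573 genes in the table. They are the class II chains H2-Aa, H2-Ab1 and H2-Eb1, the invariant chain gene Cd74, the class II transactivator Ciita, the costimulatory ligands Cd80, Cd86 and Icosl, and the coinhibitory ligands Cd274 and Pdcd1lg2. RNA-Seq was performed on bone marrow–derived macrophages (BMDMs) grown in M-CSF from female C57BL/6 WT mice, after 4 hours of treatment, with 2 libraries in each of 5 groups. The groups were vehicle, 5 µg of poly-uridine ssRNA delivered in DOTAP (polyU), the purine nucleoside phosphorylase inhibitor ulodesine at 1 µM with 5 µM dG and 5 µM rG (PNPi+dG/rG), all of these combined (PNPi+dG/rG+polyU), and R848 at 1 ng/mL. The study asked whether guanosine nucleosides spared by PNP inhibition, which need ssRNA beside them to activate TLR7, change transcription as the synthetic TLR7 ligand R848 does. The labels call the libraries of a group biological replicates but do not say whether they came from separate mice, so p-values measure the spread between these libraries only. Whether vehicle cells also received DOTAP is not given in the sources used here, so the ssRNA and its carrier cannot be told apart.

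Class II molecules are dimers of an α and a β chain that present peptides from the endolysosome to CD4+ T cells. They are assembled with the invariant chain, which blocks the peptide groove until it is cleaved, and their genes are switched on together by the coactivator CIITA, which is recruited by factors on the X and Y boxes of their promoters. A T cell that recognizes such a peptide also reads ligands beside it: CD80 and CD86 engage CD28 and CTLA-4, ICOS ligand engages ICOS, and PD-L1 and PD-L2, the products of Cd274 and Pdcd1lg2, engage the inhibitory receptor PD-1. Resting macrophages carry modest amounts of class II, which IFN-γ raises through CIITA, whereas TLR signals are known to change the costimulatory ligands within hours.

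The promoters of 4 of these genes are printed because the genes stand at the ends of the responses described later: H2-Aa and H2-Eb1 were lowest under R848, and Cd274 and Icosl were highest under R848 or PNPi+dG/rG+polyU. The sequences are from the RefSeq promoter table on GRCm38.p6, 5′ to 3′ on the strand of the gene, and end 1 base before the start of the annotated gene or, for Cd274, before its RefSeq start. Capitals mark matches to the motifs searched.
H2-Aa, chr17:34287824-34288073, minus strand: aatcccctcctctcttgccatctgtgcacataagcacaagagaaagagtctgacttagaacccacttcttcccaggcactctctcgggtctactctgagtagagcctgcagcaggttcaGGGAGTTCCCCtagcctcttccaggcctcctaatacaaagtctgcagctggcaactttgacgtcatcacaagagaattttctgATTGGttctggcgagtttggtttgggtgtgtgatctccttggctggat
H2-Eb1, chr17:34305617-34305866, plus strand: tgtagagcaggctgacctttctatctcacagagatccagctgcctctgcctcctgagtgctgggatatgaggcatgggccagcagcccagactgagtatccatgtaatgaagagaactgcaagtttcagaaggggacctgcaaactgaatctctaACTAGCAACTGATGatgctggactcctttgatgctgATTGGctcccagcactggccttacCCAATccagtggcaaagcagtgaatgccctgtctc
Icosl, chr10:78069118-78069301, plus strand: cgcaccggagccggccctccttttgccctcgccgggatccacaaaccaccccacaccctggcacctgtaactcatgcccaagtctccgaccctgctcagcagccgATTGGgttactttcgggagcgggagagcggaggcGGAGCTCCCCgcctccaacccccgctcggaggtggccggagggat
Cd274, chr19:29367188-29367437, plus strand: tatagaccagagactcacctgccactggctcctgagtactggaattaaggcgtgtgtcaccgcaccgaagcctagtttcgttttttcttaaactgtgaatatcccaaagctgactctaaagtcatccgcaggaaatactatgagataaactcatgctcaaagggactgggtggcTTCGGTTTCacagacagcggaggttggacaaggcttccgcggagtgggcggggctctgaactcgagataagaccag

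Both strands of the 250 bases before the RefSeq start were searched, and 6 of the 10 genes had an entry in the table. H2-Ab1, Cd74, Ciita and Cd86 had none. The Y box core CCAAT was found before H2-Aa, H2-Eb1 and Icosl, and in 33.8% of all 32851 promoters. The X box consensus of class II promoters, of 14 bases with at most 2 mismatches, was found before H2-Eb1 with 1 mismatch, 95 to 82 bases before the start, and in 6.97% of all promoters. The IRF element GAAANNGAA, read on the other strand, lay 76 to 68 bases before the start of Cd274 and was present in 7.13% of all promoters. The NF-κB consensus of 10 bases was found before H2-Aa, Icosl and Pdcd1lg2 and in 7.25% of all promoters. Icosl and H2-Eb1 each had a second CCAAT, which for Icosl lay 39 to 35 bases before its RefSeq start, outside the stretch printed. These matches describe letters in a window and were not tested for binding.

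Libraries held 14128128 to 38392592 reads on genes, so that 3 reads stood for 0.0781 to 0.212 CPM, the read count scaled to a common library total. Depth differed between groups: PNPi+dG/rG libraries held 38392592 and 37402322 reads, and PNPi+dG/rG+polyU libraries 14128128 and 14214911. R848 libraries held 18831299 and 32659499 reads, and those of vehicle and polyU 17208173 to 17820955. The filter for testing, 1 CPM or more in 2 or more libraries, was passed by 11978 genes and by 9 of the 10 described here. All 8 macrophage markers passed it and summed to 15196 to 18026 CPM per library, mostly Lyz2 (7756 to 11494 CPM). Under R848, 2 of the 8 were higher and 5 lower than with vehicle as deposited, where 19.2% of all tested genes were higher and 62.9% lower. After centring, 5 were higher and 3 lower, where 43% of all tested genes were higher and 34.6% lower. Mertk went from 40.3 and 40.6 CPM with vehicle to 5.36 and 5.66 under R848, and Cd14 from 466 and 482 to 2985 and 3136 CPM. Under PNPi+dG/rG+polyU 3 were higher and 5 lower under both scalings, with Mertk at 9.84 and 8.16 CPM and Cd14 at 1061 and 1124 CPM. Of all tested genes, 22.2% were higher and 46.7% lower in that comparison as deposited, and 33.2% and 33.2% after centring. Of 8 dendritic cell markers, only Itgax passed the filter, and Xcr1 and Cd209a had no read in any library. The summed level of the dendritic cell list was 66.5 to 70.4 CPM with vehicle and 78.4 to 82.9 CPM under R848. Itgax made up most of it (49.2 to 82.6 CPM over all libraries). Batf3 moved the other way, from 0.842 and 0.899 CPM with vehicle to 0.0532 and 0.123 CPM under R848. For 8 B cell markers the sum was 16.2 to 18.9 CPM with vehicle and 3.51 to 4.59 CPM under R848, mostly Cd22 (2.97 to 18.2 CPM), and the defining B cell genes Ms4a1, Cd79a and Pax5 never passed 0.168 CPM. The T cell list, which was mostly Cd28 and Cd4, summed to 75.4 to 86.8 CPM with vehicle and 4.62 to 5.63 CPM under R848, but Cd3e and Cd3d had no read. Dendritic and B cells carry class II, and the part of these marker changes in the class II values was not tested. In bulk RNA, fewer cells of a type and less RNA per cell cannot be told apart.

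CPM is a share of the library, and strongly induced genes can lower the share of the rest. The median log2 fold change of all tested genes was −0.50 for R848 against vehicle, −0.22 for PNPi+dG/rG+polyU against vehicle, and 0.02 for both polyU and PNPi+dG/rG against vehicle. Changes of R848 and PNPi+dG/rG+polyU are therefore given as deposited and, where it matters, after centring. Centring shifts each library to a common median over tested genes. After it, the median log2 fold change of all tested genes was 0.095 for R848 and −0.010 for PNPi+dG/rG+polyU, each against vehicle. For PNPi+dG/rG+polyU it was 0.017 against polyU and −0.069 against R848. Fold changes, standard errors (SE) and p-values are from limma on log2 CPM, fitted to the 10 libraries together and adjusted by Benjamini-Hochberg for the 11978 genes, and a gene is said to have risen or fallen at an adjusted p below 0.05 (two-sided).

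Levels of different genes were compared per length of exon, taken as all exonic bases over the annotated transcripts of a gene. This was 3798 bases for H2-Aa and 2568 for H2-Ab1. Which transcripts were expressed was not measured, so the order can depend on this choice of length. With vehicle, the mean level per kilobase was highest for Cd74 (438 ± 34.3 CPM per kb, SD, n = 2), followed by H2-Ab1 (55.8 ± 3.96), H2-Aa (29.0 ± 1.28), H2-Eb1 (24.5 ± 2.08) and Cd274 (15.1 ± 0.206). Cd86 (5.04 ± 0.211), Cd80 (2.72 ± 0.0775), Icosl (1.18 ± 0.197) and Ciita (0.224 ± 0.0664) lay lower, and no 2 neighbours in this order had overlapping libraries. With PNPi+dG/rG+polyU the order changed, since Cd274 (172 ± 9.30 CPM per kb) stood above every class II chain and Icosl (20.2 ± 0.357) above Cd86 (2.95 ± 0.478) and Cd80 (2.76 ± 0.0928).

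**Figure D1:**
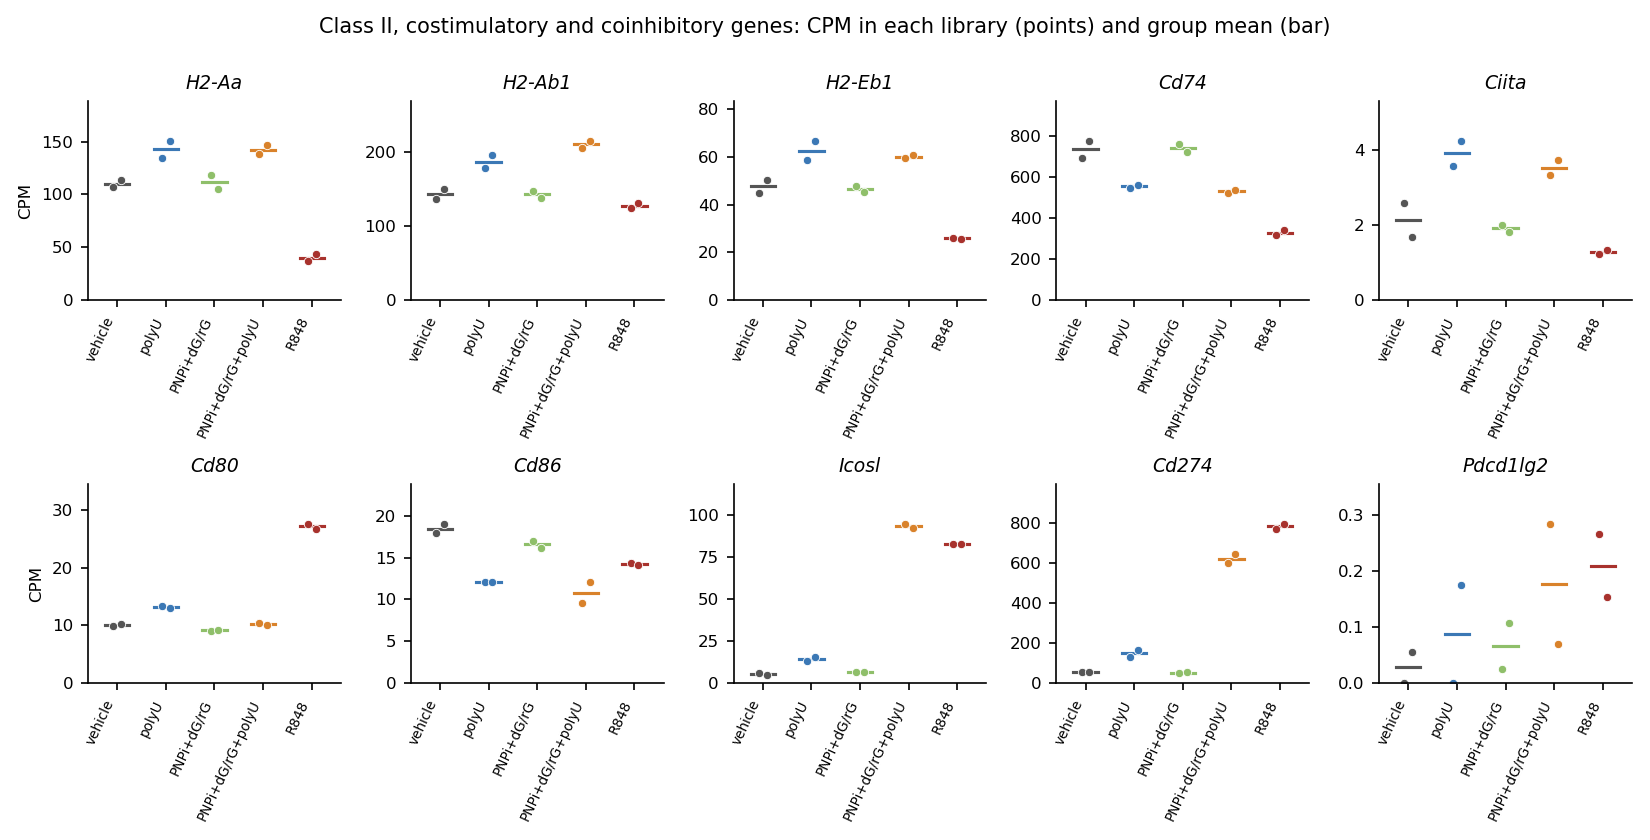
Level of each of the 10 genes in CPM (vertical axes, each starting at 0) in the 5 groups, with 1 point per library and a bar at the mean of the 2 libraries. H2-Aa, H2-Eb1 and Cd74 were lowest under R848, Cd80 was highest under R848, and Icosl and Cd274 were high under both PNPi+dG/rG+polyU and R848. Pdcd1lg2 stayed within 5 reads per library.

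The class II chain genes lie close together on chromosome 17 of GRCm38. H2-Aa (ENSMUSG00000036594, chr17:34282744-34287823) encodes the α chain of I-A, the class II molecule that C57BL/6 mice make. It was at 107 and 114 CPM in the 2 vehicle libraries, 135 and 150 under polyU, 119 and 106 under PNPi+dG/rG, 138 and 146 under PNPi+dG/rG+polyU, and 36.9 and 43.6 under R848. The R848 libraries were below all others, while the ranges of vehicle and PNPi+dG/rG overlapped, as did those of polyU and PNPi+dG/rG+polyU. H2-Aa rose 1.29-fold under polyU (log2 fold change 0.37 ± 0.08 SE, adjusted p = 0.00367) and fell by 1.46 on the log2 scale under R848 (± 0.08 SE, adjusted p = 2.82e-09).

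H2-Ab1 (ENSMUSG00000073421, chr17:34257689-34269419) encodes the β chain that pairs with H2-Aa, and yet the 2 genes separated under R848. H2-Ab1 was at 136 and 151 CPM with vehicle, 178 and 197 under polyU, 148 and 139 under PNPi+dG/rG, 206 and 215 under PNPi+dG/rG+polyU, and 124 and 131 under R848. The PNPi+dG/rG+polyU libraries were above all others, and the R848 libraries lay just below vehicle. It rose under polyU (log2 fold change 0.39 ± 0.06 SE, adjusted p = 0.000123) and under PNPi+dG/rG+polyU (0.56 ± 0.06 against vehicle, adjusted p = 7.45e-07). H2-Ab1 was 0.17 higher with the combination than under polyU alone (adjusted p = 0.0247), a call that some alternatives described later did not keep. With R848 it fell by 0.17 on the log2 scale as deposited (± 0.06 SE, adjusted p = 0.0201), but after centring on the median gene it was 0.43 higher than with vehicle (adjusted p = 1.43e-05), so its direction depends on the scaling.

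H2-Eb1 (ENSMUSG00000060586, chr17:34305867-34316674) encodes the β chain of I-E, a dimer that C57BL/6 mice do not form because their α chain gene for it is not functional. It was at 44.7 and 50.5 CPM with vehicle, 58.7 and 66.6 under polyU, 47.7 and 45.4 under PNPi+dG/rG, 59.5 and 60.7 under PNPi+dG/rG+polyU, and 26.0 and 25.8 under R848. The order of the groups was that of H2-Aa: R848 lowest, vehicle and PNPi+dG/rG overlapping, and both groups given polyU highest and overlapping. It rose under polyU (log2 fold change 0.40 ± 0.08 SE, adjusted p = 0.000605) and under PNPi+dG/rG+polyU (0.34 ± 0.08, adjusted p = 0.000873), and fell by 0.88 on the log2 scale under R848 (± 0.08 SE, adjusted p = 2.31e-08).

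Ratios taken inside a library do not depend on its scaling, and were computed after the values were seen. The H2-Aa to H2-Ab1 ratio was 0.783 and 0.754 in the vehicle libraries, 0.756 and 0.765 under polyU, 0.804 and 0.760 under PNPi+dG/rG, 0.671 and 0.680 under PNPi+dG/rG+polyU, and 0.297 and 0.333 under R848. The H2-Eb1 to H2-Ab1 ratio followed, with 0.328 and 0.335 for vehicle, 0.289 and 0.282 for PNPi+dG/rG+polyU, and 0.210 and 0.196 for R848. The 3 groups without R848 or the full combination overlapped in the first ratio, PNPi+dG/rG+polyU lay below them, and R848 lay lowest.

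**Figure D2:**
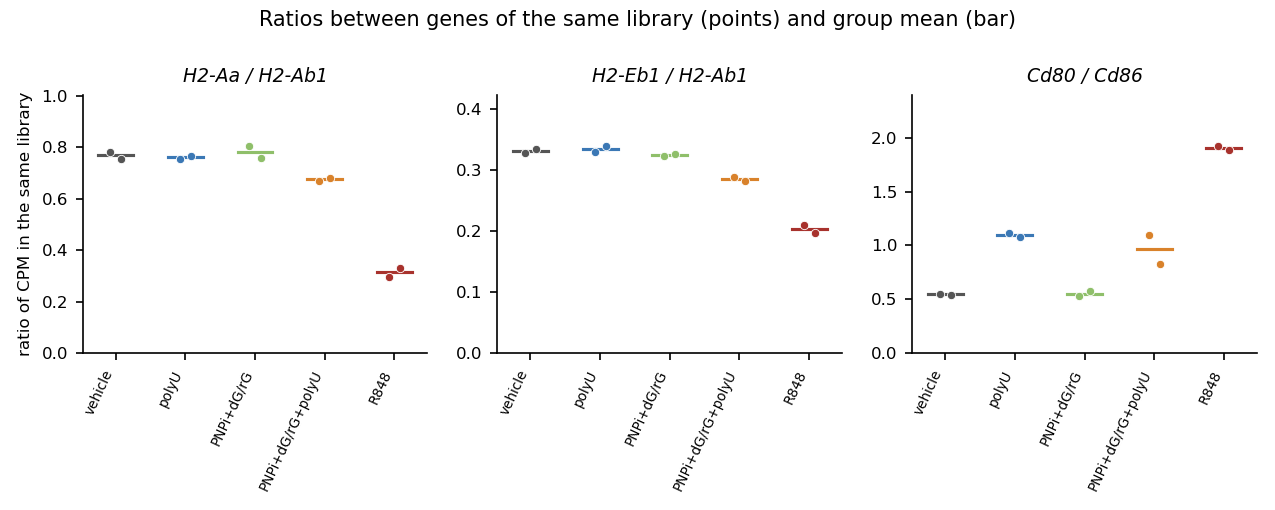
Ratio of the CPM of 2 genes in the same library (vertical axes, each starting at 0) in the 5 groups, with 1 point per library and a bar at the mean. H2-Aa and H2-Eb1 against H2-Ab1 were lowest under R848, and Cd80 against Cd86 was highest under R848 (1.92 and 1.89, against 0.552 and 0.541 with vehicle).

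Cd74 (ENSMUSG00000024610), the invariant chain that guides class II dimers to the endolysosome, moved apart from the chain genes under polyU. It was at 695 and 777 CPM with vehicle, 550 and 563 under polyU, 764 and 722 under PNPi+dG/rG, 524 and 538 under PNPi+dG/rG+polyU, and 316 and 341 under R848. Vehicle and PNPi+dG/rG overlapped, the groups given polyU lay below them, and R848 was lowest. Cd74 fell by 0.40 on the log2 scale under polyU (± 0.05 SE, adjusted p = 2.23e-05), by 0.47 under PNPi+dG/rG+polyU (± 0.05, adjusted p = 1.09e-06) and by 1.16 under R848 (± 0.05, adjusted p = 1.02e-11). All 3 falls were also called after centring, when they were −0.45, −0.26 and −0.57 on the log2 scale. The H2-Aa to Cd74 ratio rose from 0.153 and 0.146 in the vehicle libraries to 0.245 and 0.267 under polyU and 0.263 and 0.272 under PNPi+dG/rG+polyU, and was 0.117 and 0.128 under R848.

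Ciita (ENSMUSG00000022504, chr16:10480059-10528418), the coactivator on which class II transcription depends, was the lowest of the 9 genes per length. It was at 2.58 and 1.69 CPM with vehicle, 3.58 and 4.24 under polyU, 2.01 and 1.82 under PNPi+dG/rG, 3.33 and 3.73 under PNPi+dG/rG+polyU, and 1.22 and 1.35 under R848. These values rest on 23 to 77 reads per library. Both groups given polyU were above vehicle, and both R848 libraries were below it. Ciita rose under polyU (log2 fold change 0.90 ± 0.25 SE, adjusted p = 0.0101) and under PNPi+dG/rG+polyU (0.76 ± 0.25, adjusted p = 0.0151), and fell by 0.70 on the log2 scale under R848 (± 0.25 SE, adjusted p = 0.0183).

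Each of these 3 Ciita calls rests on single libraries. Without vehicle replicate 2, the adjusted p was 0.114 for polyU (log2 fold change 0.59) and 0.169 for PNPi+dG/rG+polyU (0.45). It was 0.0877 for polyU without polyU replicate 2, and 0.0762 for the combination without its own replicate 2. The fall under R848 had an adjusted p of 0.210 without vehicle replicate 1 and 0.0697 without R848 replicate 1, and of 0.708 after centring, when it was −0.11 on the log2 scale. Ciita overlaps Dexi on the opposite strand, and the strand setting of the counting is not given in the sources used here, so some reads may belong to either gene. Dexi was at 10.8 and 8.88 CPM with vehicle, 13.0 and 13.4 under polyU, and 11.4 and 10.4 under PNPi+dG/rG. It was at 12.6 and 14.6 CPM under PNPi+dG/rG+polyU and 8.28 and 10.3 under R848. Like Ciita, Dexi was highest in the groups given polyU, but its R848 and vehicle libraries overlapped. The part of shared reads in the Ciita values was not tested. H2-Eb1 and Cd274 overlap antisense genes that reached at most 0.0268 and 0.827 CPM.

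Cd80 (ENSMUSG00000075122, chr16:38455561-38496335) and Cd86 (ENSMUSG00000022901, chr16:36603869-36666081) encode the paired ligands of CD28 and CTLA-4, and they did not move together. Cd80 was at 9.88 and 10.3 CPM with vehicle, 13.4 and 13.0 under polyU, 8.99 and 9.28 under PNPi+dG/rG, 10.5 and 9.99 under PNPi+dG/rG+polyU, and 27.5 and 26.7 under R848. Only R848 set it far apart: the libraries of PNPi+dG/rG+polyU overlapped those of vehicle. Cd80 rose 2.69-fold under R848 (log2 fold change 1.43 ± 0.10 SE, adjusted p = 1.86e-09) and 1.31-fold under polyU (0.39 ± 0.10, adjusted p = 0.00604), but under PNPi+dG/rG+polyU its log2 fold change was 0.02 (95% interval −0.19 to 0.24, adjusted p = 0.861).

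Cd86 was at 17.9 and 19.0 CPM with vehicle, 12.0 and 12.0 under polyU, 17.0 and 16.1 under PNPi+dG/rG, 9.56 and 12.0 under PNPi+dG/rG+polyU, and 14.3 and 14.1 under R848. Vehicle was highest and PNPi+dG/rG next, R848 lay between these and the groups given polyU, and the latter met at their upper end. Cd86 fell by 0.62 on the log2 scale under polyU (± 0.11 SE, adjusted p = 0.000475) and by 0.78 under PNPi+dG/rG+polyU (± 0.11, adjusted p = 1.61e-05). With R848 it fell by 0.37 as deposited (± 0.11 SE, adjusted p = 0.00676) and was 0.22 higher after centring, which did not pass the test (adjusted p = 0.0854). The Cd80 to Cd86 ratio was 0.552 and 0.541 with vehicle, 1.11 and 1.08 under polyU, 1.10 and 0.830 under PNPi+dG/rG+polyU, and 1.92 and 1.89 under R848.

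Icosl (ENSMUSG00000000732, chr10:78069302-78083913), the ligand of ICOS on follicular helper and other activated T cells, had the largest fold change of the 9 genes against vehicle under PNPi+dG/rG+polyU and under R848. It was at 6.12 and 4.83 CPM with vehicle, 13.2 and 15.3 under polyU, 6.46 and 6.39 under PNPi+dG/rG, 94.4 and 92.0 under PNPi+dG/rG+polyU, and 82.6 and 82.7 under R848. Every polyU library was above every vehicle library, and the combination and R848 were above all others. Icosl rose 17.1-fold under PNPi+dG/rG+polyU (log2 fold change 4.10 ± 0.11 SE, adjusted p = 1.85e-14), 15.2-fold under R848 (3.93 ± 0.11, adjusted p = 1.38e-14) and 2.62-fold under polyU (1.39 ± 0.11, adjusted p = 7.65e-08).

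Cd274 (ENSMUSG00000016496, chr19:29367455-29388095) encodes PD-L1, which restrains T cells through PD-1. It was at 55.3 and 54.3 CPM with vehicle, 133 and 164 under polyU, 50.9 and 54.5 under PNPi+dG/rG, 598 and 646 under PNPi+dG/rG+polyU, and 771 and 794 under R848. The groups fell in 4 steps, since vehicle overlapped only PNPi+dG/rG, and R848 was highest. Cd274 rose 2.70-fold under polyU (log2 fold change 1.43 ± 0.08 SE, adjusted p = 8.72e-08), 11.3-fold under PNPi+dG/rG+polyU (3.50 ± 0.08, adjusted p = 2.82e-12) and 14.3-fold under R848 (3.84 ± 0.08, adjusted p = 6.08e-13).

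Pdcd1lg2 (ENSMUSG00000016498, chr19:29410919-29471161), the neighbour of Cd274 that encodes the other PD-1 ligand PD-L2, was close to undetectable. It had 0 and 1 reads in the vehicle libraries, 0 and 3 under polyU, 1 and 4 under PNPi+dG/rG, 4 and 1 under PNPi+dG/rG+polyU, and 5 and 5 under R848. The highest library was at 0.283 CPM, so the gene failed the filter and no fold change is given. At this depth a difference between groups was not detectable.

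Against vehicle, polyU alone raised the class II chains, Ciita, Cd80, Icosl and Cd274, and lowered Cd74 and Cd86. That was 7 genes higher and 2 lower of 9 tested, where 20.6% of all tested genes were higher and 18.7% lower. The largest changes were those of Cd274 (2.70-fold) and Icosl (2.62-fold), and the other 5 rises ran from 1.29-fold for H2-Aa to 1.87-fold for Ciita. The median log2 fold change of the 9 was 0.39, beside 0.02 for all tested genes.

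PNPi+dG/rG alone called none of the 9, where 0.409% of all tested genes were higher and 0.392% lower by limma. The largest change by limma was that of Icosl, at 1.18-fold (log2 fold change 0.24 ± 0.11 SE, adjusted p = 0.525). Its 95% interval, which is not adjusted for the number of genes, was 0.011 to 0.47. The fold changes of the others ran from −0.15 for Cd86 to 0.02 for H2-Aa on the log2 scale. The interval was widest for Ciita, from −0.67 to 0.41, and narrowest for Cd74, from −0.097 to 0.13.

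With PNPi+dG/rG+polyU against vehicle, Icosl and Cd274 rose more than 10-fold, H2-Aa, H2-Ab1, H2-Eb1 and Ciita rose less than 2-fold, and Cd74 and Cd86 fell. These were 6 higher and 2 lower of 9, where 22.2% of all tested genes were higher and 46.7% lower. The median of the 9 was 0.37 on the log2 scale and that of all tested genes −0.22. Centring, after which 33.2% of all tested genes were higher and 33.2% lower, kept all 8 calls and their directions, with Cd80, at 0.23, just short of the threshold (adjusted p = 0.0505).

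With R848 against vehicle, Icosl, Cd274 and Cd80 rose while the class II chains, Cd74, Ciita and Cd86 fell as deposited, although H2-Ab1 and Cd86 were on the higher side after centring. These were 3 higher and 6 lower of 9, where 19.2% of all tested genes were higher and 62.9% lower. Their median was −0.37 on the log2 scale, beside −0.50 for all tested genes. After centring, 4 were higher and 3 lower, where 43% of all tested genes were higher and 34.6% lower. H2-Aa (−0.86), Cd74 (−0.57) and H2-Eb1 (−0.28) were still lower, H2-Ab1 was higher, and Ciita and Cd86 were not called. Scaling without the 100 most abundant genes, which left the median of all tested genes at −0.42, gave no such reversal. Under it Ciita (−0.62, adjusted p = 0.0331) and Cd86 (−0.30, adjusted p = 0.0254) stayed lower, and H2-Ab1 (−0.090, adjusted p = 0.179) was not called. The fall of H2-Ab1 as deposited also had an adjusted p of 0.225 without vehicle replicate 2 and 0.139 without R848 replicate 1.

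**Figure D3:**
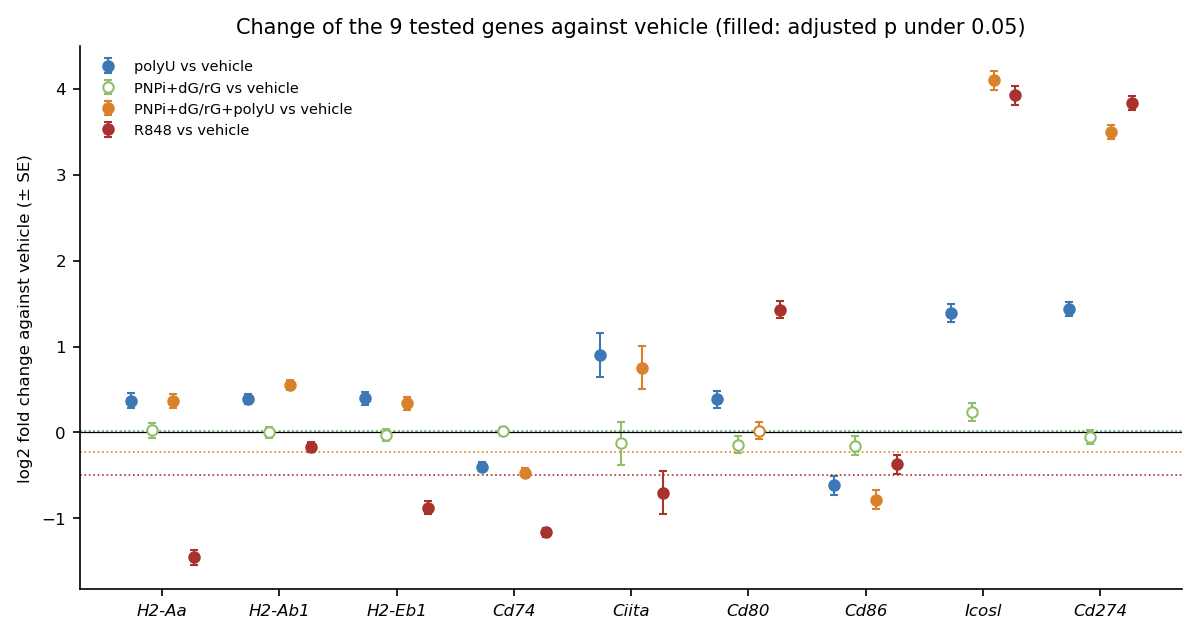
Log2 fold change against vehicle (vertical axis) of the 9 tested genes for the 4 treatments, with bars of 1 SE from the limma fit, and filled points at an adjusted p below 0.05. Dotted lines mark the median of all 11978 tested genes in the same comparison, which lay at −0.50 for R848 and −0.22 for PNPi+dG/rG+polyU. The falls of H2-Ab1 and Cd86 under R848 turned to 0.43 and 0.22 after centring.

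PNPi+dG/rG was also added on top of polyU, a comparison that shares the PNPi+dG/rG+polyU libraries with the one against vehicle. No group received dG and rG without the inhibitor, or the inhibitor without them, so their parts cannot be told apart. Icosl went from 13.2 and 15.3 to 94.4 and 92.0 CPM (6.54-fold, log2 fold change 2.71 ± 0.11 SE, adjusted p = 5.64e-12), and Cd274 from 133 and 164 to 598 and 646 CPM (4.20-fold, 2.07 ± 0.08, adjusted p = 7.45e-10). H2-Ab1 was higher by 0.17 on the log2 scale (± 0.06 SE, adjusted p = 0.0247) and Cd80 lower by 0.37 (adjusted p = 0.00498). That made 3 higher and 1 lower of 9, where 15.8% of all tested genes were higher and 47.5% lower. H2-Aa (−0.0025), H2-Eb1 (−0.057), Cd74 (−0.067), Ciita (−0.15) and Cd86 (−0.17) did not pass. The median of the 9 was −0.06 on the log2 scale.

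Scaling weighed on this comparison, in which the median of all tested genes was −0.24. After centring, 6 of the 9 were higher and 0 lower, where 30.1% of all tested genes were higher and 25.3% lower. H2-Aa (0.25, adjusted p = 0.0216), H2-Eb1 (0.20, adjusted p = 0.0408) and Cd74 (0.19, adjusted p = 0.00549) joined H2-Ab1, Icosl and Cd274, and Cd80, at −0.11, was no longer called. The H2-Ab1 difference as deposited was lost without polyU replicate 1 (0.098, adjusted p = 0.242) and without PNPi+dG/rG+polyU replicate 2 (0.14, adjusted p = 0.152). Cd86, in contrast, passed without PNPi+dG/rG+polyU replicate 2 (−0.33, adjusted p = 0.0252).

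The interaction asks whether PNPi+dG/rG did more in the presence of polyU than without it. It was positive for Icosl (2.47 ± 0.15 SE on the log2 scale, adjusted p = 2.98e-09) and for Cd274 (2.13 ± 0.11, adjusted p = 3.29e-08), whose log2 fold changes under PNPi+dG/rG alone were 0.24 and −0.06. These were 2 higher and 0 lower of 9, where 11.8% of all tested genes were higher and 38.9% lower. The other 7 ran from −0.22 for Cd80 to 0.17 for H2-Ab1, and the median over all 9 was −0.02, beside −0.27 for all tested genes. After centring, H2-Ab1 (0.46, adjusted p = 0.000674) and Cd74 (0.20, adjusted p = 0.0334) were called higher too, where 24.1% of all tested genes were higher and 17% lower. Without vehicle replicate 1 or polyU replicate 2 H2-Ab1 passed as deposited (both 0.24, adjusted p = 0.0408 and 0.0404).

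The study set PNPi+dG/rG+polyU beside R848, each at 1 dose. Every PNPi+dG/rG+polyU library was above every R848 library for the class II chains and Cd74. H2-Aa was higher by 3.54-fold (log2 fold change 1.83 ± 0.08 SE, adjusted p = 7.52e-10), H2-Eb1 by 2.32-fold (1.22 ± 0.08, adjusted p = 1.07e-09), H2-Ab1 by 1.65-fold (0.72 ± 0.06, adjusted p = 4.22e-08) and Cd74 by 1.62-fold (0.69 ± 0.05, adjusted p = 1.48e-08). Ciita was 2.75-fold higher (1.46 ± 0.25, adjusted p = 9.96e-05). Cd80 went the other way and was 2.65-fold higher under R848 (log2 fold change −1.41 ± 0.10, adjusted p = 5.63e-09), as were Cd86 (1.33-fold, adjusted p = 0.00453) and Cd274 (1.26-fold, adjusted p = 0.00326).

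That made 5 higher and 3 lower of 9 under PNPi+dG/rG+polyU against R848, where 53.9% of all tested genes were higher and 16.9% lower. Icosl did not pass, at 0.17 on the log2 scale (95% interval −0.057 to 0.40, adjusted p = 0.163). The median of the 9 was 0.69 and that of all tested genes 0.31. After centring, the same 5 were higher and the same 3 lower, where 28.4% of all tested genes were higher and 37.5% lower, with H2-Aa at 1.44, Ciita at 1.07, H2-Eb1 at 0.83, H2-Ab1 at 0.34, Cd74 at 0.31, Cd274 at −0.72, Cd86 at −0.79 and Cd80 at −1.79, and Icosl turned to −0.21 (adjusted p = 0.107). The Cd86 difference was lost without PNPi+dG/rG+polyU replicate 1, the lower of its pair (−0.24, adjusted p = 0.0750).

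**Figure D4:**
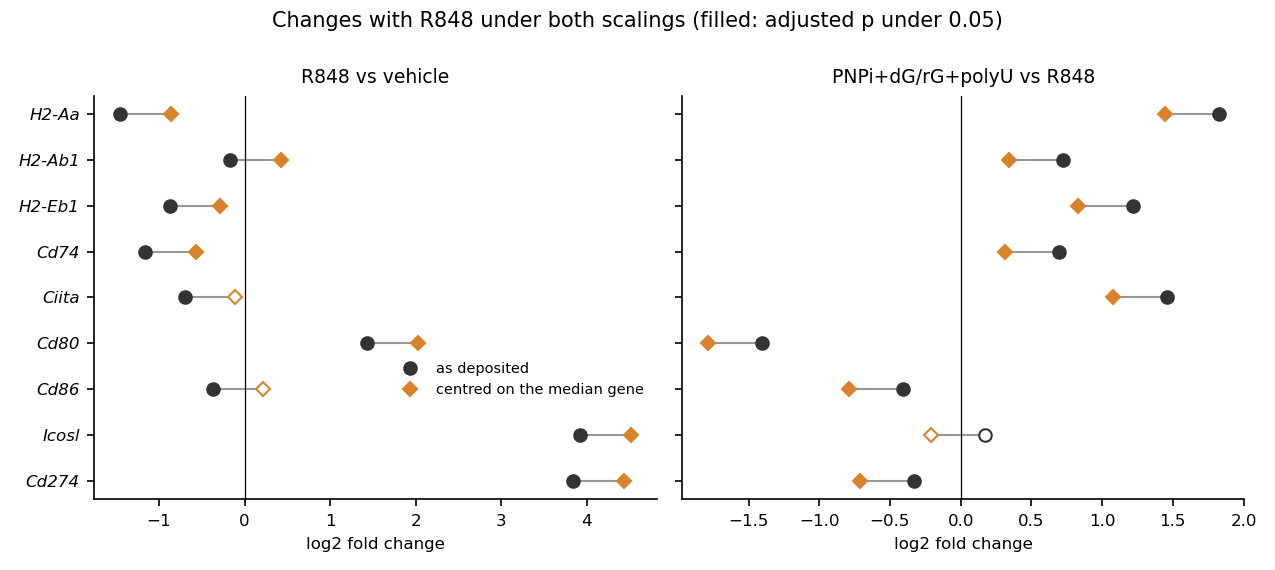
Log2 fold change (horizontal axes) of the 9 tested genes for R848 against vehicle and for PNPi+dG/rG+polyU against R848, as deposited (circles) and after centring each library on its median gene (diamonds), filled at an adjusted p below 0.05. Against vehicle, H2-Ab1 and Cd86 change sign between the scalings, and against R848 Icosl does, while H2-Aa, H2-Eb1, Cd74, Cd80 and Cd274 keep theirs.

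Other genes of the class II pathway were read from a list of 20, of which 16 passed the filter. With R848, 2 rose and 11 fell as deposited, with a median log2 fold change of −0.47, which is near the −0.50 of all tested genes, and after centring 8 were higher and 4 lower. These counts stand beside 19.2% and 62.9% of all tested genes as deposited, and 43% and 34.6% after centring. March1, the ubiquitin ligase that removes class II and CD86 from the cell surface, was at 22.6 and 18.9 CPM with vehicle, 78.8 and 95.5 under PNPi+dG/rG+polyU and 267 and 255 under R848. It rose 12.6-fold under R848 (log2 fold change 3.66 ± 0.10 SE, adjusted p = 1.42e-12) and 4.19-fold with the combination (2.07 ± 0.10, adjusted p = 1.10e-09).

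The peptide exchange factor H2-DM, which helps load class II, was lowest under R848. H2-DMa was at 15.2 and 14.8 CPM with vehicle, 15.0 and 16.0 under PNPi+dG/rG+polyU and 5.47 and 5.36 under R848, and H2-DMb1 was at 28.8 and 27.7, 30.7 and 33.6, and 12.3 and 12.3 CPM. Their falls under R848 were 1.47 and 1.20 on the log2 scale as deposited (adjusted p = 1.25e-09 and 1.36e-09) and remained after centring, at −0.87 and −0.60. Rfx5, a subunit of the complex that binds the X box, rose from 9.60 and 10.2 CPM with vehicle to 28.2 and 29.8 under PNPi+dG/rG+polyU (log2 fold change 1.55 ± 0.11 SE, adjusted p = 2.74e-09) and 13.3 and 13.8 under R848. In the combination, 2 of the 16 rose and 8 fell as deposited (median −0.07, beside −0.22 for all tested genes), and 8 were higher and 6 lower after centring, beside 22.2% and 46.7% of all tested genes, and 33.2% and 33.2% after centring. Rfxap, another subunit of that complex, fell with it by 0.54 on the log2 scale (adjusted p = 0.000109).

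Among 15 other ligands and adhesion molecules that face T cells, 11 were tested. With PNPi+dG/rG+polyU 8 rose and 3 fell, and under R848 7 rose and 3 fell, which after centring were 8 and 3, and 9 and 2. Of all tested genes, 22.2% were higher and 46.7% lower with the combination and 19.2% and 62.9% with R848, and after centring 33.2% and 33.2%, and 43% and 34.6%. Their median log2 fold changes as deposited were 0.71 and 1.28, beside −0.22 and −0.50 for all tested genes. Cd40, the receptor for T-cell CD40 ligand, went from 14.4 and 15.2 CPM with vehicle to 618 and 666 under PNPi+dG/rG+polyU and 499 and 538 under R848 (log2 fold changes 5.44 and 5.13, both ± 0.08 SE, adjusted p = 1.66e-16 and 9.79e-17). Icam1, the adhesion ligand of LFA-1, went from 64.9 and 72.3 to 1104 and 1070 with the combination and 1111 and 1207 CPM under R848. Tnfsf4, the OX40 ligand, rose with the combination from 0.617 and 0.225 to 3.68 and 5.21 CPM, and Tnfsf14, known as LIGHT, fell under R848 from 7.58 and 6.97 to 0.372 and 0.612 CPM.

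Genes of the IFN-γ route to Ciita and Cd274 were read together with Il10, which is not part of that route, from a list of 10. Of these, 9 were tested and 6, Il10 among them, rose and 2 fell both under PNPi+dG/rG+polyU and under R848 as deposited, and after centring 8 and 1, and 8 and 0, beside the shares of all tested genes given for the ligands. The medians as deposited, with Il10 counted, were 1.20 and 0.91 on the log2 scale, beside the same −0.22 and −0.50. Ifng itself had no read except 1 in a single R848 library. Irf1, a transcription factor for many IFN-induced genes, went from 21.5 and 22.2 CPM with vehicle to 261 and 242 with the combination and 63.0 and 69.4 under R848. Jak2, a kinase of the IFN-γ receptor, went from 51.1 and 48.5 to 421 and 439 and to 779 and 769 CPM. Socs1, which restrains JAK kinases, rose from 2.69 and 2.08 to 117 and 127 and to 96.8 and 106 CPM. Il10, whose product is known to lower class II on macrophages, rose from 2.02 and 1.97 to 113 and 116 and to 109 and 110 CPM. The part of any of these genes in the changes of the class II and ligand genes was not tested.

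**Figure D5:**
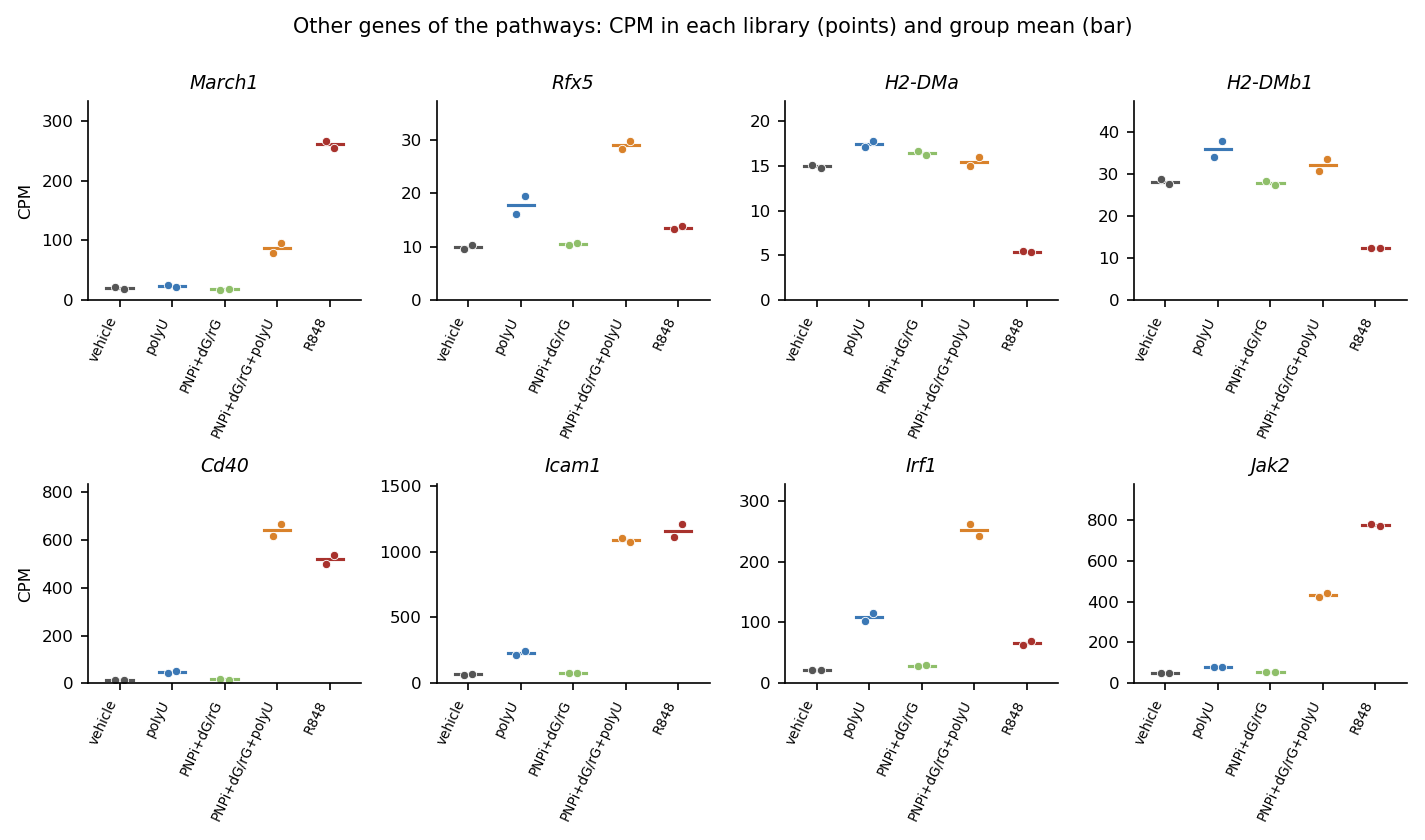
Level in CPM (vertical axes, each starting at 0) of 8 other genes of these pathways in the 5 groups, with 1 point per library and a bar at the mean. March1 and Jak2 were highest under R848, Rfx5 and Irf1 were highest under PNPi+dG/rG+polyU, and H2-DMa and H2-DMb1 were lowest under R848.

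For each of the 9 genes, the 3 genes of at least 10 CPM on average whose log2 values followed it most closely over the 10 libraries were found. Icosl was followed by Edn1, Prdm1 and Map3k8 (Pearson's r at least 0.998), and Cd274 by Riok3, Traf1 and Nod2 (at least 0.997). H2-Aa was followed by Rab29, Fbxo4 and Hmgn3 (at least 0.991), H2-Eb1 by Jpt1, Sec61b and Ndufa4 (at least 0.994), and Cd74 by Rtn4, Rcan1 and Rpgrip1l (at least 0.989). H2-Ab1 was followed by Irf7, C1qb and Mov10 (at least 0.983), whose group means were highest under PNPi+dG/rG+polyU, as its own was. Coefficients were lower for Ciita (Glipr1, Thyn1 and Snw1, at least 0.969) and for Cd86 (Mfn2, Chst11 and Med23, at least 0.955), and Cd80 was followed by Cyp4v3, Cmklr1 and Ldha (at least 0.985). The points share their libraries, treatments and scaling, and these coefficients are a description of 10 libraries.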

How the data were processed

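The authors deposited 1 table of read counts per gene scaled to a common library total (CPM), with an offset of 0.0001 on every value and no further correction for composition. Per the study's methods and labels, reads from stranded mRNA libraries were mapped with STAR to GRCm38, counted on Ensembl genes and normalized in Partek Flow. The processing notes list bcl2fastq 2.19.1.403 and STAR 2.27a. Reads per library were worked out from the steps of low values. Symbols and positions came from GENCODE M21 on GRCm38.

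limma 3.58.1 in R 4.3.3 (statmod 1.5.0) was fitted to log2 of the deposited values of all 10 libraries, with eBayes trend and robust settings and Benjamini-Hochberg adjustment over 11978 genes that reached 1 CPM in 2 or more libraries. The script was tested on simulated data. Motifs were searched in the 250 bases before RefSeq starts. Tests for counts were not run on the reads worked out from the normalized values. With 2 libraries per group, the spread between libraries is known with low precision. The genes described, the pathway lists and the marker lists were chosen with earlier results of these data known. Of each of the 3 pathway lists, counts were given with the 3 called genes of largest change in PNPi+dG/rG+polyU and in R848 against vehicle. Alternatives were 2 pseudocounts, 2 filters, 2 scalings, plain eBayes, only the groups compared, a replicate block, a 2-fold threshold, a longer promoter window and leaving out each library. Results that need items withheld for evaluation are not reported here.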

Additional observations from a re-analysis of the deposited data

Results flagged for a closer look

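The effect of PNPi+dG/rG differed with and without polyU for 2 of the 9 tested genes, by the interaction term of limma. For Icosl the interaction was 2.47 on the log2 scale (adjusted p = 2.98e-09): PNPi+dG/rG took it from 13.2 and 15.3 to 94.4 and 92.0 CPM with polyU, and from 6.12 and 4.83 to 6.46 and 6.39 CPM without. For Cd274 it was 2.13 (adjusted p = 3.29e-08), with 133 and 164 to 598 and 646 CPM with polyU, and 55.3 and 54.3 to 50.9 and 54.5 CPM without. Leaving out any 1 library kept both calls. Groups of 2 libraries are too small to mark a single library as standing apart.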

How the results depend on the processing

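Counts of called genes out of 9 stayed within 1.5 times the reported ones except at a 2-fold threshold and for the centred interaction. The centred interaction had 4. The 2-fold threshold left, against vehicle, 5 for R848, 2 for polyU and 2 for the combination of PNPi+dG/rG and polyU. For this combination it left 2 against polyU and 4 against R848. The share of all tested genes at a 2-fold threshold was not computed, so these counts cannot be set against it. Leaving out 1 library gave 8 to 9, 0, 7 to 8, 7 to 9, 3 to 4, 7 to 8 and 2 to 3, in the order polyU, PNPi+dG/rG, the combination, then R848, each against vehicle, the combination against polyU and against R848, and the interaction. A replicate block left the counts at 9, 0, 8, 9, 4, 8 and 2. Deviations of same-numbered libraries had a median r of −0.0230, from −0.286 to 0.109, over 10 pairs of groups. With 2 libraries per group this cannot settle whether libraries of different groups were paired, and pairing in another order was not tested. Of 855 alternative values for single genes, 785 kept direction and side of the threshold, 18 lost a call, 6 gained one and 46 changed sign.

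Centring changed these signs (log2). PNPi+dG/rG against vehicle became −0.0078 for H2-Aa, −0.032 for H2-Ab1 and −0.017 for Cd74. R848 against vehicle became 0.43 for H2-Ab1 and 0.22 for Cd86. The combination against polyU became 0.25 for H2-Aa, 0.20 for H2-Eb1, 0.19 for Cd74, 0.11 for Ciita and 0.088 for Cd86, and scaling without the 100 most abundant genes gave 0.010 for H2-Aa. The combination against R848 became −0.21 for Icosl. The interaction became 0.26 for H2-Aa, 0.26 for H2-Eb1, 0.20 for Cd74, 0.27 for Ciita, 0.064 for Cd80 and 0.27 for Cd86.

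Leaving out 1 library changed signs only of differences that had not passed the test. For PNPi+dG/rG against vehicle the ranges were −0.061 to 0.11 for H2-Aa, −0.072 to 0.073 for H2-Ab1, −0.12 to 0.057 for H2-Eb1, −0.065 to 0.095 for Cd74 and −0.43 to 0.18 for Ciita. For the combination they were −0.013 to 0.056 for Cd80 against vehicle, and −0.082 to 0.076 for H2-Aa and −0.15 to 0.034 for H2-Eb1 against polyU. For the interaction they were −0.11 to 0.058 for H2-Aa, −0.12 to 0.064 for H2-Eb1, −0.33 to 0.29 for Ciita and −0.18 to 0.15 for Cd86. The H2-Ab1 calls for R848 against vehicle and the combination against polyU were also lost with plain eBayes (adjusted p = 0.0856 and 0.10), and the latter without a filter (0.0503). The difference of Icosl between the combination and R848 passed when only those groups were fitted (adjusted p = 0.00715), and that of Ciita between R848 and vehicle did not (0.0595). The cause of these changes was not tested. With 50 more bases downstream, the same genes held each motif. Each dose was given once, with 2 libraries per group, and Pdcd1lg2 lay under the depth needed to compare groups.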

Other observations

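Cd28, which T cells use to receive CD80 and CD86, was itself measured in these macrophage cultures, in which Cd3e and Cd3d had no read. It was at 79.7 and 66.6 CPM with vehicle, 51.0 and 50.03 under polyU, 60.0 and 63.7 under PNPi+dG/rG, 15.2 and 13.9 under PNPi+dG/rG+polyU, and 4.04 and 4.53 under R848. By limma the log2 fold change against vehicle was −0.53 for polyU (adjusted p = 0.000399), −2.33 for PNPi+dG/rG+polyU (adjusted p = 4.08e-12) and −4.09 for R848 (adjusted p = 1.84e-15), and the interaction was −1.56 (adjusted p = 1.47e-07). Cd4 fell under R848 as well, by 3.28 on the log2 scale (adjusted p = 5.10e-09). Both were chosen after their values were seen, in a list of T cell markers.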
